A study of Mus musculus with 12 samples.

Results

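The cytosolic ribosomal protein genes were taken as every gene whose array probe sets carry a single symbol of the Rpl or Rps form, or Rplp0, Rplp1, Rplp2 or Rpsa, with the S6 kinases and pseudogenes left out. This gave 50 genes out of 18193 with a single symbol, read by 106 probe sets. Each gene was represented by the probe set with the highest mean log2 signal over the 12 arrays. Of the 50 genes, 48 passed the filter on low signal, and Rpl3l and Rps16 did not. The 50 genes comprise 20 of the large subunit, 21 of the small subunit, 2 of the stalk (Rplp0 and Rplp2) and 7 paralogs or partners (Rpl3l, Rpl7l1, Rpl22l1, Rpl39l, Rps27l, Rps4l and Rps19bp1).

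Total RNA of mouse D3 embryonic stem cells, an established line of pluripotent cells, was hybridised to 12 one-colour Affymetrix arrays. All cultures were kept for 7 days in medium with serum. The group called LIF had leukaemia inhibitory factor at 1000 units per ml and no lithium, and the group LIF plus lithium had the same LIF with lithium at 50 nM as the labels give it. The LIF-free group had neither, and the group LIF-free plus lithium had lithium alone. Each group has 3 arrays labelled as biological replicates. The labels do not describe how the replicate cultures were separated, and whether an array holds RNA of 1 culture or of several is not clear from the series text, so p-values measure the spread between these samples, which may be partly technical. The series title names Wnt and LIF signalling as its subject.

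The mammalian cytosolic ribosome is built from a large and a small subunit, each made of ribosomal RNA and a set of proteins needed in nearly equal amounts. Most of its protein genes are single intron-containing copies beside many processed pseudogenes. Their mRNAs begin with a C followed by a run of pyrimidines, the terminal oligopyrimidine (TOP) motif, through which mTOR signalling and Larp1 control their translation together. LIF keeps mouse embryonic stem cells undifferentiated through Stat3, and lithium is an inhibitor of Gsk3, a kinase of the Wnt pathway.

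Start windows of 13 genes are shown first because the TOP run is the sequence feature the family is known for. RefSeq starts on GRCm38.p6 were found for 44 of the 50 genes, and Rpl7, Rpl8, Rps14, Rps20, Rps29 and Rps4l were not in the table used. A start base C followed by 4 bases that are C or T was found in 8 of the 44 (18.2%) against 3.01% of all 27025 genes in the table. A run of this form anywhere within 15 bases of the start was present in 29 members (65.9%) against 40.3% of all genes. Both counts rest on annotated starts. Where transcription starts in these cells was not measured, so a gene without the run here is not shown to lack a TOP motif. In the lines below, the annotated start is base 16 of 30, and capitals mark the longest run of C followed by at least 4 pyrimidines. These 8 have it at the start base itself:
Rps18 (chr17:33955651-33955680, minus strand): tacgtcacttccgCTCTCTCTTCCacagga
Rpl38 (chr11:114668565-114668594, plus strand): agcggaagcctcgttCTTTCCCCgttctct
Rps10 (chr17:27635230-27635259, minus strand): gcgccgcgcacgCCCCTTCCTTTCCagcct
Rpl35 (chr2:39005117-39005146, minus strand): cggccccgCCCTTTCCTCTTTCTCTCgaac
Rplp2 (chr7:141447636-141447665, plus strand): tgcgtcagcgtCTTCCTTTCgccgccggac
Rps6 (chr4:86857353-86857382, minus strand): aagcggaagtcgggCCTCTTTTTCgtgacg
Rpl14 (chr9:120571502-120571531, plus strand): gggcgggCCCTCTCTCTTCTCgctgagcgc
Rps27 (chr3:90213634-90213663, minus strand): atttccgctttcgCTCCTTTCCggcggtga

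The next windows belong to 5 further genes whose signal passed the test in LIF withdrawal, described later. In Rpl27a the run crosses the annotated start, in Rpl12 and Rpl22l1 it begins after it, and Rps25 and Rpl7l1 have none in this window.
Rpl12 (chr2:32961697-32961726, plus strand): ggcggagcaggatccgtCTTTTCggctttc
Rps25 (chr9:44407699-44407728, plus strand): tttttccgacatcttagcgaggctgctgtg
Rpl27a (chr7:109519180-109519209, plus strand): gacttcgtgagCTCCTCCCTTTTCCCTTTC
Rpl7l1 (chr17:46782642-46782671, minus strand): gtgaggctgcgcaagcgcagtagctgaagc
Rpl22l1 (chr3:28805493-28805522, plus strand): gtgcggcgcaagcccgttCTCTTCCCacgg

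Sequence motifs known from promoters of housekeeping genes were searched on both strands between 250 bases before and 50 bases after the start. None of these motifs contains another. CCGGAAG, the core bound by ETS factors such as GABP, was found in 21 of 44 members (47.7%) against 9.93% of all genes. GGGCGG, the box bound by Sp1, was found in 26 (59.1%) against 38.2%. TATAA was found in 14 (31.8%) against 28%, and GATGGCGG, bound by YY1, in 2 (4.55%) against 1.97%. A match describes letters only. Rpl39l, called in LIF withdrawal, and its paralog Rpl39, not called, are shown over 150 bases that end 15 bases after the start. Both genes hold CCGGAAG and TATAA somewhere in the searched region, and 1 match is in capitals in each line, CCGGAAG for Rpl39l and TATAA for Rpl39.
Rpl39l (chr16:10170093-10170242, plus strand): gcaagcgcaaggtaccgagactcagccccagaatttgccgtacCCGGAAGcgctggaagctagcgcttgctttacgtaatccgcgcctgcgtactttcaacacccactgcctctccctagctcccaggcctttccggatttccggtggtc
Rpl39 (chrX:37085208-37085357, minus strand): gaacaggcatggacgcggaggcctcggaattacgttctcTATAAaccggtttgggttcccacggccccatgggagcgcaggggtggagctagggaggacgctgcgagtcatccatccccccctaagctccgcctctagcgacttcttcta

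Signals are MAS5 intensities on a linear scale. A signal of one probe set is not comparable with that of another as an amount of RNA, so levels are compared within a gene only. The 34 canonical genes with a mean signal over 5000, a limit chosen after the values were seen, lay between 5291 and 10146 on average. The other 8 canonical genes (Rpl37, Rpl27a, Rpl12, Rps25, Rps6, Rpl14, Rps27 and Rpl39) lay between 64.6 and 1357. The 6 tested paralogs and partners lay between 72.5 and 3992. Of the 50 representative probe sets, 13 are of the _x_at type, whose probes can bind other transcripts. Signal from pseudogenes or relatives of these genes thus cannot be told apart from the gene's own. The 18 _a_at, 17 _at and 2 _s_at sets (the last those of Rpl22 and Rps9) were not checked for such binding.

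**Figure D1:**
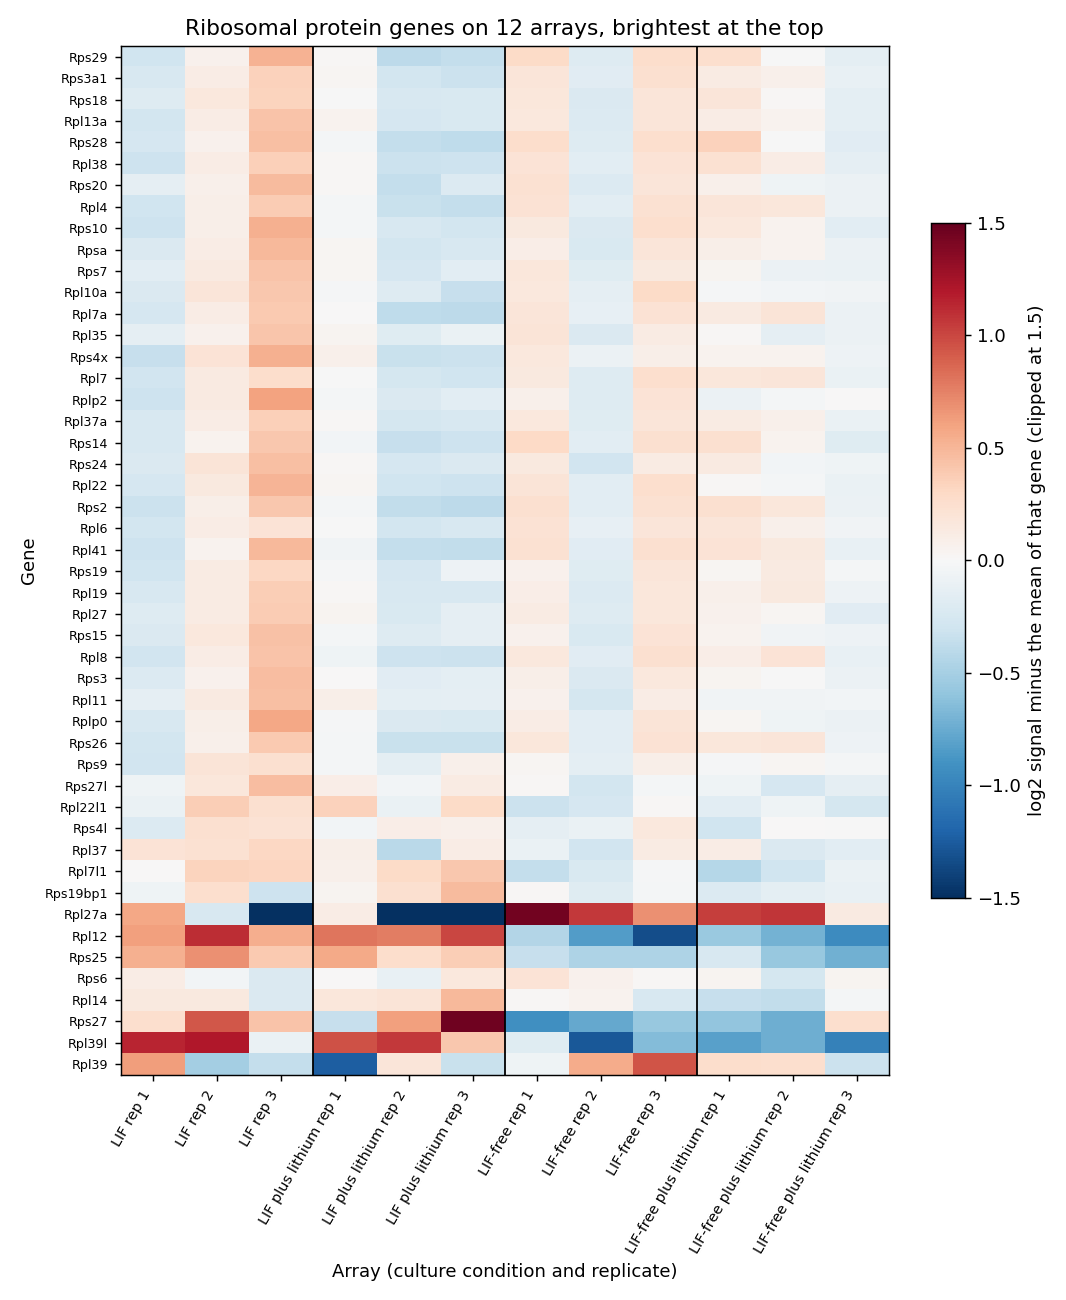
Log2 signal of the 48 tested ribosomal protein genes on each of the 12 arrays, as the difference from that gene's mean over all arrays; rows run from the brightest gene at the top to the dimmest, and the colour scale is clipped at 1.5. Most of the 34 brightest genes share their shade on the LIF arrays and on the LIF-free arrays without lithium, with more exceptions on the lithium arrays. The rows of Rpl12, Rps25, Rpl39l and Rpl7l1 separate the arrays with LIF from those without, and those of Rpl27a and Rps27 overlap.

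The bright genes as a group differed between replicates. The median deviation of the 34 genes from their own means was -0.25, 0.11 and 0.42 (log2) on the 3 LIF arrays, and 0.00, -0.27 and -0.24 on the LIF plus lithium arrays. It was 0.16, -0.18 and 0.20 on the LIF-free arrays and 0.11, 0.05 and -0.09 on the LIF-free plus lithium arrays. The LIF arrays included the highest of the 12 and one of the lowest. The same medians over 27 other genes of equal brightness were -0.23, 0.11 and 0.34 on the LIF arrays and -0.01, -0.26 and -0.22 on the LIF plus lithium arrays. They were 0.22, -0.12 and 0.20 without LIF, and 0.12, 0.07 and -0.06 without LIF but with lithium. The members and the other bright genes thus had nearly the same deviation on each array. Rps29, a small protein of the small subunit and the brightest member, had 8126, 10395 and 14273 on the LIF arrays, and on the third of these it was the highest signal of the whole array. Whether signal still rises in proportion to RNA at such levels was not tested.

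**Figure D2:**
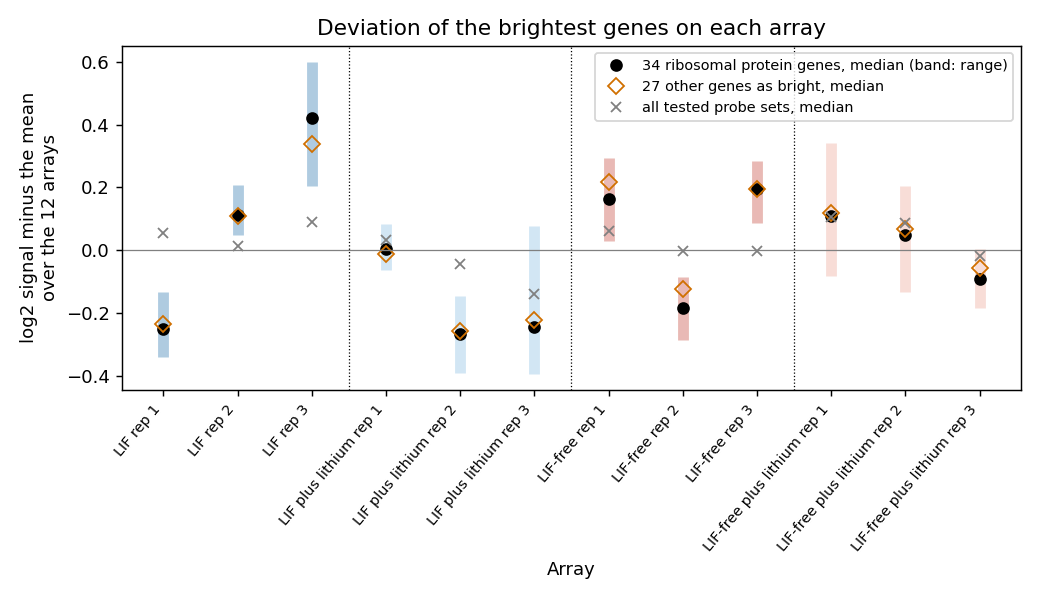
Median deviation (log2 signal minus the mean over the 12 arrays) of the 34 ribosomal protein genes with a mean signal over 5000 (black points, with a band from the lowest to the highest gene), of 27 other genes as bright (diamonds) and of all tested probe sets (crosses), for each array. The points and diamonds lie close together on every array, and within the LIF group they run from -0.25 to 0.42.

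Some differences between whole groups touch every result below. The 9 embryonic stem cell markers (such as Pou5f1, Nanog and Zfp42) were all above the filter level in every group, and 8 of the 9 were lower without LIF. Their summed signal was 19665 to 30108 with LIF, 22468 to 23752 with LIF and lithium, 12182 to 15333 without LIF and 9795 to 15026 without LIF but with lithium. Of 6 markers of simple epithelium or trophoblast 5 were tested and all 5 were higher without LIF, with summed signals of 3318 to 5438 in LIF cultures and 10774 to 13198 in LIF-free ones (2902 to 4965 and 10973 to 13090 with lithium). Of 10 fibroblast or feeder markers 8 were tested, 4 were higher and 1 lower, and 2 to 5 of the 10 had a group mean under the filter level. Their sums were 2179 to 3404 with LIF and 3163 to 5804 without (2084 to 3019 and 3107 to 5330 with lithium). Of 5 endoderm markers 4 were tested and 2 were higher, with sums of 139 to 432 with LIF and 414 to 647 without (151 to 348 and 303 to 544 with lithium). The Gapdh 3′ to 5′ ratio was 0.816 ± 0.00567 (SD, n = 3) with LIF, 0.832 ± 0.0316 with LIF and lithium, 0.764 ± 0.0321 without LIF and 0.783 ± 0.0298 without LIF but with lithium. The actin 3′ to 5′ ratio was 1.77 ± 0.246, 1.75 ± 0.216, 1.55 ± 0.134 and 1.61 ± 0.098 in the same order. The 18S ribosomal RNA signal was 428 ± 327, 284 ± 237, 679 ± 188 and 591 ± 252. The part of these differences in the results was not tested, and a change in the mix of cells cannot be told apart from a change in RNA per cell.

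The first question was what LIF withdrawal did to the family. Pooled over both lithium states (6 arrays without LIF against 6 with it), 6 members fell, 1 rose and 41 of 48 were not called at an adjusted p of 0.05 (limma, Benjamini-Hochberg over 27022 probe sets). The called share was 14.6% of members, beside 24.7% of all probe sets (13.9% higher and 10.8% lower), 30.9% of all 12737 tested genes and 35.7% of the 3978 genes at or above the 10th percentile of the members' mean signal. The share of members called in either direction was thus below each of these backgrounds. By direction, 6 of the 48 members fell, beside 10.8% of all probe sets, 13.5% of all genes and 17% of those 3978 genes lower. In the other direction 1 of 48 rose, beside 13.9%, 17.4% and 18.7% higher. The low share of calls therefore came mainly from few rises, and falls were about as frequent as among all probe sets and all genes. The members' median log2 change was 0.05, and that of all probe sets was 0.02. Those that fell were Rpl12, Rps25 and Rps27 among the canonical genes and Rpl39l, Rpl7l1 and Rpl22l1 among the paralogs. Rpl27a rose. All called canonical genes were among the 8 dimmer ones, of which 3 fell and 1 rose. Rpl12 (mean signal 360), Rps25 (241) and Rps27 (85.5) are each read by only 1 set with a single symbol.

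None of the 34 bright canonical genes was called on the deposited scale, and under quantile normalization Rpl11 was (-0.14, adjusted p 0.0327, limma). Their pooled changes ran from -0.08 (Rpl11) to 0.21 (Rps2), with a median of 0.07, 95% half-widths of 0.213 to 0.313 and a smallest adjusted p of 0.283 (limma). Over all 34, the interval bounds reached from -0.32 to 0.49, so a change beyond those bounds would lie outside every interval. Rplp0, the protein that anchors the stalk on which translation factors act, had 4835, 6084 and 8556 with LIF and 5623, 4892 and 4877 with LIF and lithium. Without LIF it had 6151, 5115 and 6502, and without LIF but with lithium 5824, 5469 and 5370. All 6 LIF-free values fell inside the range of the LIF values. Its pooled log2 change was 0.01 with a 95% interval of -0.26 to 0.28. Rplp2, one of the acidic proteins of the same stalk, averaged 8692 ± 2720 (SD, n = 3) with LIF and 7821 ± 1077 without, and its pooled change was -0.01.

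Bright members with known roles outside the ribosome are given next, and Rpl11 is the one whose call depended on the scaling. Rpl11, which binds Mdm2 when ribosome assembly fails, had the lowest of the 34 changes, and its pooled interval was -0.32 to 0.15. Rpl13a, a component of a translation-silencing complex, changed by 0.05, and Rpl38, known for its effect on translation of Hox mRNAs, by 0.15. Among small-subunit proteins, Rpsa, also known as the laminin receptor, changed by 0.04. Rps3, which has a role in DNA repair, changed by -0.0028, Rps14 by 0.16 and Rps19, the gene first linked to Diamond-Blackfan anaemia, by 0.07. Rps6, the substrate of the S6 kinases, was read by a dim set with 209, 187 and 166 with LIF and 223, 201 and 195 without. Its pooled change was 0.03 (95% interval -0.20 to 0.26).

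Rpl12, the large-subunit protein at the base of the stalk, had the lowest pooled change of the 48 tested genes. It had 469, 659 and 447 with LIF and 533, 524 and 612 with LIF and lithium. Without LIF it had 226, 171 and 122, and without LIF but with lithium 208, 187 and 160. Every LIF-free array was below every LIF array. The pooled log2 change was -1.61 ± 0.15 (SE), an adjusted p of 2.91e-05, and the change was -1.63 without lithium (adjusted p 0.00158) and -1.59 with lithium (adjusted p 0.00109). Leaving out any single array kept all 3 calls, with adjusted p at most 0.0113.

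Rps25, a small-subunit protein that some viral mRNAs need for initiation, had 328, 366 and 298 with LIF and 337, 273 and 293 with LIF and lithium. It had 179, 165 and 165 without LIF and 193, 153 and 138 without LIF but with lithium. The groups with and without LIF did not overlap. Its pooled change was -0.93 ± 0.11 (SE, adjusted p 9.24e-05), with -0.96 without lithium (adjusted p 0.00313) and -0.91 with lithium (adjusted p 0.00329).

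Rps27, a zinc-finger protein of the small subunit, was dim and spread widely. It had 89.0, 142 and 101 with LIF and 58.8, 115 and 205 with LIF and lithium, against 39.5, 43.8 and 50.4 without LIF. With lithium alone it had 49.5, 44.8 and 88.6. The 2 groups without lithium did not overlap, and those with lithium did. It was called in the pooled comparison (-1.11 ± 0.27 SE, adjusted p 0.00984) and in neither lithium state alone, where its adjusted p was 0.0539 without lithium and 0.137 with lithium. With the replicate number as a block it was called in both (0.00696 and 0.0326). Its paralog Rps27l, a target of p53, had 3770, 4445 and 5469 with LIF and 4015, 3270 and 3867 without. Its pooled change of -0.25 was not called (adjusted p 0.0884). Under quantile normalization it was lower in the pooled comparison (-0.27, adjusted p 0.00252), without lithium (adjusted p 0.0484) and with lithium (adjusted p 0.0269).

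Rpl27a, a large-subunit protein, was the member that rose. It had 592, 334 and 115 with LIF and 427, 119 and 76.5 with LIF and lithium. It had 1076, 822 and 638 without LIF, and 810, 834 and 435 without LIF but with lithium. The LIF arrays spread widely, and the highest of them lay above the lowest LIF-free array with lithium. The pooled change was 1.81 ± 0.43 (SE, adjusted p 0.00799). With lithium it was 2.08 (adjusted p 0.0413), and without lithium 1.54 (adjusted p 0.134). The call with lithium was lost when any of 7 arrays was left out (LIF-free replicates 2 and 3, LIF replicate 2, LIF plus lithium replicates 2 and 3, LIF-free plus lithium replicates 1 and 2), with an adjusted p of up to 0.182. The array's 18S ribosomal RNA control had 768, 402 and 115 on the LIF arrays and 557, 132 and 162 with LIF and lithium, and 891, 532 and 615 without LIF and 824, 625 and 323 without LIF but with lithium. It was thus also higher without LIF on average, and its part in the change of Rpl27a was not tested.

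**Figure D3:**
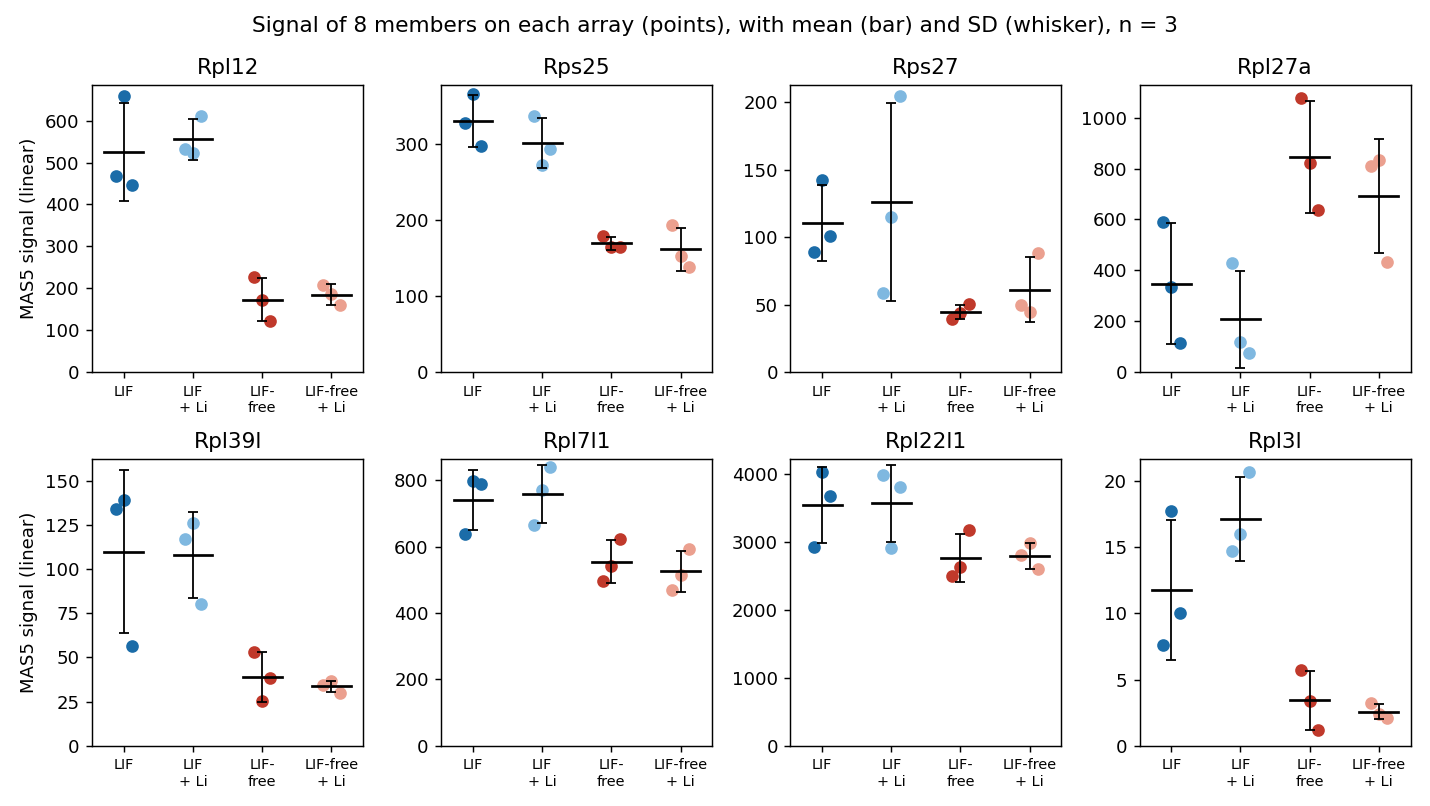
MAS5 signal (linear) of the 7 genes called in pooled LIF withdrawal and of Rpl3l on each array, by group; points are arrays, bars the mean of 3 arrays and whiskers the SD. Rpl12, Rps25, Rpl39l, Rpl7l1 and Rpl3l are lower on every LIF-free array than the lowest LIF array, and Rpl27a is higher in LIF-free cultures with a wide spread among LIF arrays.

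All 6 tested paralogs and partners had a negative pooled change, from -1.55 to -0.13, and 3 of the 6 were called, beside 30.9% of all genes (13.5% lower). Rpl39l is a paralog of Rpl39, the small protein that lines the peptide exit tunnel, and is best known from testis. It had 134, 139 and 56.6 with LIF and 117, 126 and 80.3 with LIF and lithium. Without LIF it had 53.3, 25.1 and 38.5, and without LIF but with lithium 34.3, 36.5 and 30.0. The lowest LIF value was just above the highest LIF-free one. The pooled change was -1.55 ± 0.25 (SE, adjusted p 0.000748), with -1.45 without lithium (adjusted p 0.0237) and -1.66 with lithium (adjusted p 0.0101). The call without lithium was lost without LIF replicate 2 (adjusted p 0.105), LIF-free replicate 2 (0.105) or LIF-free replicate 3 (0.0585). Rpl39 itself had 92.9, 42.0 and 46.8 with LIF and 57.4, 88.5 and 115 without, which overlap. Its pooled change was 0.54 with a 95% interval of -0.06 to 1.15 and was not called (adjusted p 0.187).

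Rpl7l1, a relative of Rpl7 that acts in large-subunit assembly, had 637, 797 and 790 with LIF and 666, 772 and 838 with LIF and lithium. It had 495, 542 and 624 without LIF and 469, 513 and 593 without LIF but with lithium. All LIF-free values were below all LIF values. The pooled change was -0.48 ± 0.10 (SE, adjusted p 0.00495). Without lithium the change was -0.42 and not called (adjusted p 0.0925). It was -0.53 with lithium (adjusted p 0.0332), a call lost without any of 5 arrays (LIF-free replicate 2, LIF plus lithium replicates 2 and 3, LIF-free plus lithium replicates 1 and 2, with adjusted p up to 0.139). The other 2 probe sets of the gene changed by -0.09 and -0.12 and were not called. Rpl7 had 6236, 8409 and 9156 with LIF against 8435, 6693 and 9082 without.

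Rpl22l1, the paralog of Rpl22, averaged 3542 ± 563 (SD, n = 3) with LIF and 3569 ± 570 with LIF and lithium, 2766 ± 355 without LIF, and 2796 ± 193 without LIF but with lithium. Its ranges overlapped. The pooled change was -0.35 (adjusted p 0.0350). This call was lost when any of 9 arrays was left out, with an adjusted p of up to 0.0885 (without LIF replicate 2), and it kept its call only without LIF replicate 1, LIF plus lithium replicate 2 or LIF-free replicate 3. Rpl22 averaged 8473 ± 2209 with LIF and 8116 ± 1167 without. Rps4l, a relative of the X-linked Rps4x, changed by -0.13 (adjusted p 0.417) while Rps4x changed by 0.06. Rps19bp1, a nucleolar partner of Rps19, changed by -0.22 (adjusted p 0.185).

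Rpl3l, the muscle paralog of Rpl3, lay near the filter level and was not among the tested genes. Its probe set had 7.57, 17.7 and 10 with LIF and 14.7, 16 and 20.7 with LIF and lithium, against 5.67, 3.4 and 1.24 without LIF. With lithium alone it had 3.17, 2.4 and 2.13. In a fit with no filter its pooled change was -2.34 (adjusted p 0.00423), a size that rests on values near background. Rps16 was read by a single set whose signal was between 0.2 and 1.3 on all 12 arrays.

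**Figure D4:**
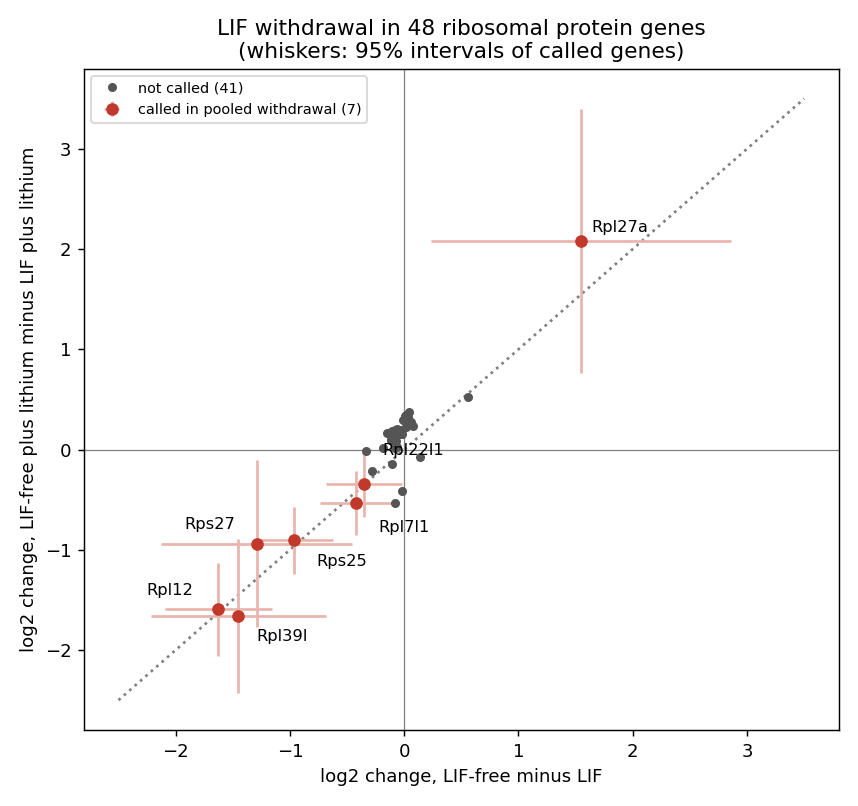
Log2 change on LIF withdrawal without lithium (horizontal) and with lithium (vertical) for the 48 tested genes; red genes were called in the pooled comparison, with 95% intervals, grey ones were not, and the dotted line marks equal change. The 41 genes not called cluster around the origin with Rpl39 farthest out at 0.56 and 0.53, 6 called genes lie below 0 on both axes, and Rpl27a lies at 1.54 and 2.08.

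Taken alone, withdrawal without lithium called 3 members, all lower (Rpl12, Rps25 and Rpl39l). That is 6.25% of members beside 9.31% of all probe sets (5.4% higher and 3.91% lower) and 12.6% of all genes. With the replicate number as a block, which pairs the arrays of this comparison, 6 members (12.5%) and 19.5% of all probe sets were called. Rps27 (adjusted p 0.00696) and Rpl7l1 (0.0124) were then also lower, and Rpl27a was higher (0.00369). Leaving out LIF replicate 1 alone also gave 6 calls, and leaving out LIF replicate 2, LIF-free replicate 2 or LIF-free replicate 3 gave 2. The shares of all probe sets called with an array left out are not given here. Withdrawal in the presence of lithium called 1 member higher and 4 lower, 10.4% of members beside 12.5% of all probe sets (7.53% higher and 4.93% lower) and 16.1% of all genes. It called 3 when any of 5 arrays was left out (LIF-free replicate 2, LIF plus lithium replicates 2 and 3, LIF-free plus lithium replicates 1 and 2). The members' median change was -0.05 without lithium, where that of all probe sets was -0.07. With lithium it was 0.16, where that of all probe sets was 0.11, and after quantile normalization it became -0.07. All 34 bright genes had a positive change in withdrawal with lithium (0.01 to 0.38), none called. The median deviation of the 27 other bright genes was -0.01, -0.26 and -0.22 on the LIF plus lithium arrays. The part of this in the changes was not tested.

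Several members are read by more than 1 kept probe set, and the sets of a gene did not always move together. Over all 99 kept sets of the family, 13 fell and 1 rose in pooled withdrawal (14.1%, beside 24.7% of all probe sets), and the called sets belong to 13 genes. In 7 cases the called set was not the brightest of its gene. Rps24 fell by 1.26 on the log2 scale in a set with a mean signal of 279 (adjusted p 0.0216) and changed by 0.01 in its brightest set at 7634. Rpl41 fell by 0.99 in a set at 180 (adjusted p 0.0248) and changed by 0.18 in its brightest set at 7188. Rps20 fell by 0.83 in a set at 36.9 (adjusted p 0.0410), and its brightest set at 8931 changed by 0.05. Rpl37a fell by 0.64 in a set at 437 (adjusted p 0.00307) and Rpl13a by 0.40 in a set at 1941 (adjusted p 0.0114), while their brightest sets changed by 0.09 and 0.05. Rps10 had 2 called sets, one at 33 (-0.72, adjusted p 0.0224) and one at 5247 (-0.65, adjusted p 0.0366), and its brightest set at 8374 changed by 0.08. In these 6 genes a dimmer set was lower without LIF and the brightest was not called. They are 6 of the 20 members with several kept sets. Of all probe sets 10.8% were lower in this comparison, so some such calls would be found among any sets. Rpl12, Rps25 and Rps27, whose only sets are dim, have no other single-symbol set, so this comparison could not be made for them. Which transcript or part of one each set detects was not analysed here.

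Lithium at the labelled dose of 50 nM, a unit that could not be checked, called no member. Whether Gsk3 was inhibited in these cultures was not measured. With LIF present, 0 of 48 members and 0% of all probe sets passed (limma, adjusted), and at an unadjusted p under 0.05 there were 0 members and 749 probe sets (2.77%). The smallest p among members belonged to Rpl37, Rpl7a and Rpl10a, all of the large subunit. Rpl37 had 1546, 1574 and 1661 with LIF and 1421, 1013 and 1447 with LIF and lithium, and these groups did not overlap. Its change was -0.32 with a 95% interval of -0.66 to 0.02 (adjusted p 0.999). Rpl7a changed by -0.34 (-0.71 to 0.04) and Rpl10a by -0.31 (-0.65 to 0.04). The members' median was -0.26, beside -0.08 for all probe sets, and all 34 bright genes had a negative change (-0.34 to -0.08). After quantile normalization the members' median was 0.02, so the direction of this shift depends on the scaling.

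Without LIF, lithium also called 0 of 48 members and 0% of all probe sets (limma, adjusted), and 0 members and 347 probe sets (1.28%) had an unadjusted p under 0.05. The smallest p belonged to Rpl14 (-0.19), Rps6 (-0.16) and Rpl39 (-0.41), each with an adjusted p of 1.00. The members' median was -0.04 and that of all probe sets 0.03. For the 34 bright genes the interval bounds of the lithium effect without LIF reached from -0.52 to 0.40, so a larger change in either direction lies outside all their intervals.

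The interaction asks whether withdrawal differed between the lithium states. It called 0 of 48 members and 0% of all probe sets (limma, adjusted), and 0 members and 666 probe sets (2.46%) had an unadjusted p under 0.05. The smallest p belonged to Rpl14 (-0.45, 95% interval -0.97 to 0.07), Rps19bp1 (-0.39, -0.87 to 0.09) and Rpl37 (0.32, -0.16 to 0.80). For Rpl12 the difference in effect was 0.03 with an interval of -0.63 to 0.69, for Rps25 0.05 (-0.42 to 0.53), and for Rpl39l -0.21 (-1.29 to 0.88). For Rpl27a it was 0.54 with an interval of -1.32 to 2.39, which is wide enough to hold a difference as large as the effect itself.

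Genes that work with the ribosome were set beside the family in pooled withdrawal. Of 19 other TOP mRNAs, mostly translation factors, none was called, with a median of -0.02 beside 0.05 for the ribosomal proteins. Eef1a1, which delivers aminoacyl-tRNA, changed by 0.29 (adjusted p 0.170), Eef2 by -0.14 (0.517) and Npm1, a nucleolar chaperone, by 0.12 (0.474). Of 35 ribosome biogenesis genes, 13 fell and 1 rose, with a median of -0.24. Those lower were 37.1% of the list beside 10.8% of all probe sets and 13.5% of all genes. Of the 3978 genes at or above the 10th percentile of the members' mean signal, 17% were lower. Dkc1, the pseudouridine synthase of box H/ACA particles, averaged 1817 with LIF and 921 without (-0.98 ± 0.15 SE, adjusted p 0.000625). Its partner Nop10 fell by 0.50 on the log2 scale (adjusted p 0.00266), the small-subunit endonuclease Nob1 by 0.59 (0.00324) and Nolc1, a nucleolar chaperone, by 0.53 (0.00249).

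RNA polymerase I, which transcribes ribosomal RNA, had 4 of 15 listed genes lower (26.7%) and none higher, with a median of -0.21, beside 13.5% of all genes and 17% of those 3978 genes lower. The 4 were the subunits Znrd1 (-0.80, adjusted p 0.000173), Twistnb (-0.44, 0.00348) and Polr1a (-0.57, 0.0174) and the factor Ubtf (-0.61, 0.00769). Of 76 mitochondrial ribosomal protein genes, 17 fell and 3 rose, with a median of -0.19, and 22.4% were lower. Withdrawal without lithium alone had 2 of the 76 lower (2.63%), beside 5.09% of all genes. With lithium 9 were lower (11.8%), beside 6.57% of all genes. Mrps24 (-0.80, adjusted p 0.000696), Mrps31 (-0.73, 0.000382), Mrpl47 (-0.58, 0.00196) and Mrpl18 (-0.48, 0.00383) had the smallest p. In the mTOR list of 19, 3 rose and 3 fell (31.6%, near the 30.9% of all genes). Deptor, an inhibitor of mTOR, fell from 242 to 86.3 (-1.52 ± 0.18 SE, adjusted p 0.000101), while Rragd (1.61, adjusted p 0.00136) and Rragc (0.53, 0.00215), GTPases that bring mTOR to the lysosome, and Pdcd4 (0.78, 0.00150), a repressor of translation, rose. Mtor itself changed by -0.25 (adjusted p 0.145).

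In the Myc family, 2 of 9 genes rose and 1 fell (33.3%, near the 30.9% of all genes). Mxd4, an antagonist of Myc, rose from 14.4 to 56.5 (2.08 ± 0.35 SE, adjusted p 0.000887) and Mycl by 0.99 (0.00706), and Mxi1, another antagonist, fell by 0.70 on the log2 scale (0.000709). Myc changed by 0.42 (adjusted p 0.121) and Mycn by -0.26 (0.131). In all 6 lists no gene was called in the lithium comparisons or the interaction.

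**Figure D5:**
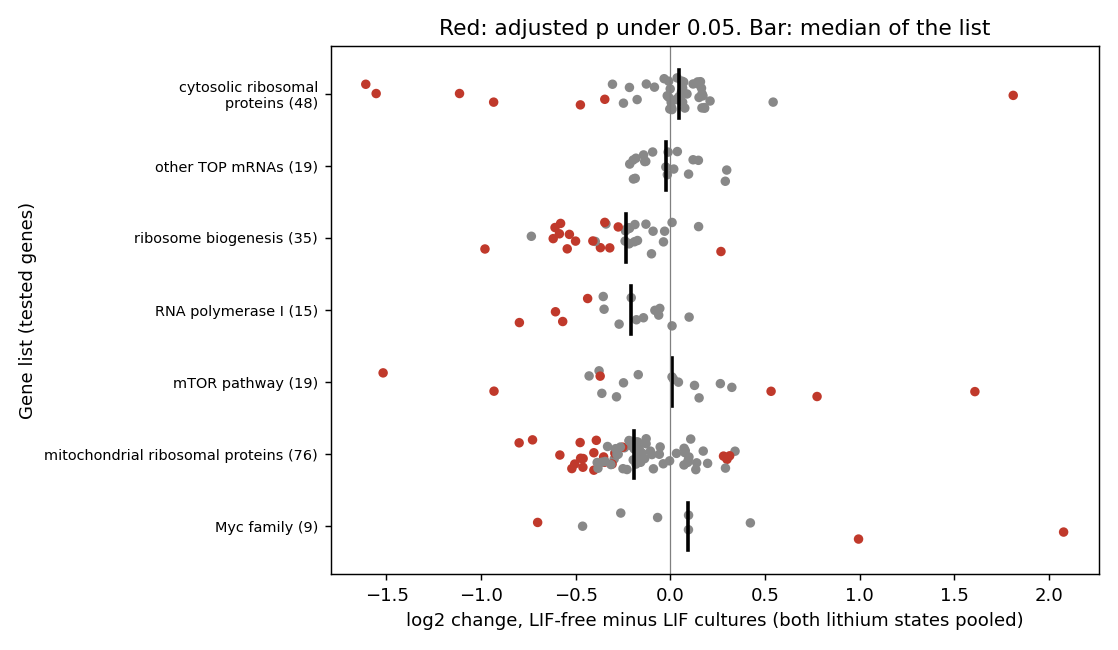
Log2 change in pooled LIF withdrawal (LIF-free minus LIF cultures) of every tested gene of the cytosolic ribosomal proteins and of 6 related lists; red points passed an adjusted p of 0.05, grey ones did not, and black bars are medians. Most ribosomal proteins lie near 0 (median 0.05), and the biogenesis, RNA polymerase I and mitochondrial ribosomal lists have medians of -0.24, -0.21 and -0.19.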

How the data were processed

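Total RNA was hybridised to 12 one-colour arrays, and the authors deposited 1 table of linear MAS5 signal intensity, computed with MAS5 per the submitters' processing notes, whose version and settings are not given in the sources used here. Gene symbols came from the platform annotation: 34945 probe sets have 1 symbol and 932 several, and sets with several symbols were not named. Gene IDs of 34741 matched the reference names and 0 symbols changed. The 64 controls were left out of 45101 sets. A floor of 1, which 0.146% of tested values fell under, came before log2. Sets whose mean log2 over the 12 arrays exceeded the 40th percentile (a signal of 7.52) were tested, 27022 in all.

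A mean per group was fitted to all arrays by limma 3.58.1 under R 4.3.3 (lmFit, eBayes with trend, 8 residual degrees of freedom). Tests were two-sided, with Benjamini-Hochberg adjustment over all tested sets and calls were made at 0.05. LIF withdrawal (without lithium, with it, and pooled), lithium (with and without LIF) and their interaction gave 6 comparisons, which share arrays. Named genes are members called in a comparison (at most 10 a direction), else the 3 of smallest p, and a list of 30 of which 22 are members. Of related lists, up to 4 called genes of smallest p are named, and a few others were added after their values were seen. Members and lists were chosen with earlier results of these data known. The other 8 symbols of the list (Rplp1, Rps27a, Rpl5, Rpl10, Rpl10l, Rpl3, Rpl36a and Rpl36al) are not read by a set with a single symbol.

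The replicate numbers come from the labels. Residual correlations of same-numbered arrays were 0.438, 0.137 and 0.339 for LIF and LIF-free, and 0.499, 0.139 and 0.321 for LIF and LIF plus lithium. All of these lay above the correlations with arrays of another number. For LIF-free and LIF-free plus lithium they were 0.462, 0.111 and 0.300, and replicate 2 reached 0.162 with another number. For LIF plus lithium and LIF-free plus lithium they were 0.451, 0.0972 and 0.379, and replicate 2 reached 0.135 with another number. Pairing was thus less clear there. The main fit used no pairing in any comparison, and the replicate block was an alternative applied to all. In withdrawal without lithium the main fit called fewer members than the block did. Alternatives were quantile normalization, centring each array on its median, 16 added before log2, filtering at the 60th percentile or not at all, the replicate block, the brightest set not of the _x_at type, every probe set of a member, and leaving out each array. The fit was tested on simulated data with independent noise and large planted changes, which does not bear on smaller changes or on shifts shared by the genes of an array. Start windows and promoters are RefSeq's on GRCm38.p6. The number of arrays limits the precision. Plots used Python 3.11.15 and matplotlib 3.10.9.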

Additional observations from a re-analysis of the deposited data

How the results depend on the processing

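A median of the members was counted as moved where it differed from the reported one by over 0.201 log2, the spread between arrays. Under quantile normalization the members' median became -0.067 in withdrawal with lithium (0.16 as reported), 0.019 for lithium with LIF (-0.26) and -0.017 for the interaction (0.21). With the replicate block, withdrawal without lithium called 6 members in place of 3, and the block changed no other count of members called by over 1.5 times (withdrawal with lithium gave 7, adding Rps27 at an adjusted p of 0.0326 and Rpl14 at 0.0354, and pooled withdrawal 7). In pooled withdrawal, counting every probe set gave 14 calls among 99 sets (14.1%), in place of 7 among 48 genes (14.6%). Leaving out 1 array gave 2 to 6 calls without lithium, 3 to 6 with lithium and 6 to 8 pooled, and members' medians of -0.21 to 0.11, 0.10 to 0.24 and -0.04 to 0.13. For lithium with LIF, lithium without LIF and the interaction it gave 0 calls each and medians of -0.40 to -0.11, -0.14 to 0.02 and 0.06 to 0.37. The shares of all probe sets called with an array left out are not given here, so these counts are not read against a background. With no filter, Rpl27a in withdrawal with lithium (adjusted p 0.0610) and Rpl22l1 pooled (0.0662) were no longer called. In pooled withdrawal with the block, 18 biogenesis, 7 RNA polymerase I and 31 mitochondrial ribosomal genes were lower, and 1 of the 19 other TOP mRNAs, beside 18.4% of all genes lower. Quantile normalization called 9 members in pooled withdrawal (18.8%, beside 25.1% of all probe sets), adding Rpl11 and Rps27l. No result changed direction while called.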

Other observations

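A further 110 probe sets carry several symbols of which at least 1 is a ribosomal protein's, and 106 of them passed the filter. They include 31 ribosomal protein symbols that no set with a single symbol reads. In pooled LIF withdrawal 2 of the 106 were higher and 3 lower, with a median log2 change of 0.07. Of all probe sets 13.9% were higher and 10.8% lower in that comparison. In withdrawal without lithium 1 of the 106 was higher and 0 lower, beside 5.4% and 3.91% of all probe sets. In withdrawal with lithium 2 were higher and 0 lower, beside 7.53% and 4.93%. None was called in either lithium comparison or the interaction (limma, Benjamini-Hochberg). Their median change for lithium with LIF was -0.24, beside -0.26 for the members.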
